A study of Mus musculus with 155 samples.

Results

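The comparison covers retinoic acid (RA)-treated mouse cells at 72 h against 24 h after doxycycline (Dox). It uses 6 of the 155 samples of the series, which hold 42 RNA-seq libraries. The 6 libraries were found by their titles, as 1 library each of cells expressing WT, K27M or K27L H3.3 at each time. Every line derives from KH2 FLIP-in mouse embryonic stem cells (ESCs), carries a single added copy of SNAP- and HA-tagged H3.3 that Dox switches on, and keeps its own H3.3 genes. In K27M and K27L the lysine at the PRC2 target position of H3.3 is replaced by methionine or leucine. All 6 cultures received RA and Dox, so no library here lacks the transgene or the drug. Each line is a clone, and a potential duplication of chromosome 8 in all clones is reported in the methods, so genes of that chromosome were left out. The line was kept as a block, and each difference is thus taken within WT, K27M and K27L. The 3 libraries of a time differ in genotype, and p-values measure the spread between these libraries after the line means are removed.

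Time was not the only thing that separated the groups. The 24 h libraries held 5050115 (WT), 22269533 (K27M) and 7464040 (K27L) counts, and the 72 h libraries 2239137, 3105371 and 3268238. The labels name a kit that sequences the 3′ end of polyadenylated transcripts and a kit that sequences along the whole mRNA, without saying which library was made with which. The growth labels name RA and the absence of LIF for the 24 h libraries only, although titles and source names mark all 6 as RA-treated. Time of Dox, time in RA, library kit and sequencing depth therefore cannot be told apart in this comparison.

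RA enters cells as a small lipid, binds nuclear receptors of the RAR family on DNA and switches on genes that break it down, bind it and pattern the embryo. In cultures without LIF, RA drives ESCs out of pluripotency, toward neural fates at the caudal positions marked by Hox genes and also toward extraembryonic endoderm. H3.3 is a histone H3 variant that is placed in chromatin independently of DNA replication, and its lysine 27 is the residue that PRC2 methylates.

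Of 11692 genes tested, 4924 (42.1%) were called, with 2296 (19.6%) higher and 2628 (22.5%) lower at 72 h. Calls needed both a change of more than 2-fold and a Benjamini-Hochberg adjusted p under 0.05 in the quasi-likelihood test of edgeR. With scaling by total counts alone, 1753 genes were higher and 3416 lower, and the median of all genes moved from -0.06 to -0.33 on the log2 scale. The time difference had the same sign in all 3 lines for 9449 of all tested genes (80.8%), and for 2291 of the 2296 higher and 2620 of the 2628 lower genes, which were chosen by the same within-line differences. All 72 h libraries lay above all 24 h libraries for 31.5% of tested genes, and all 24 h libraries above all 72 h libraries for 34.7%. In ESCs of the same lines, 6 libraries at 24 h and 5 at 72 h of Dox, 27 of 12363 genes (0.218%) were called, 23 higher (0.186%) and 4 lower (0.0324%). Leaving out 1 of these ESC libraries gave 1 to 85 calls. The difference between the RA and the ESC time effect was itself called for 5962 of 14227 genes (41.9%). The methods describe the 24 h and 72 h points of RA-treated cells as similar and pooled, and give no measure of that similarity.

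**Figure D1:**
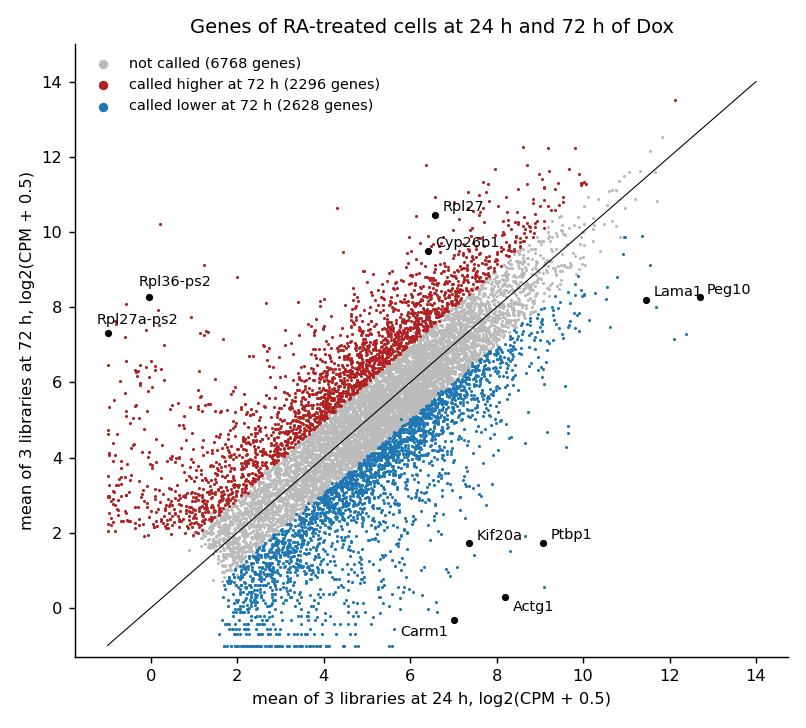
Each point is a gene tested in RA-treated cells, with the mean of the 3 libraries at 24 h on the x axis and at 72 h on the y axis, both as log2(CPM + 0.5), and the line marks equal levels. The 2296 genes called higher at 72 h (red) and the 2628 called lower (blue) lie on both sides of the line, and genes such as Actg1 and Rpl27a-ps2 lie near the bottom and the left edge.

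The largest changes among genes of at least 50 CPM at the higher time are described first. In all that follows, values of 3 libraries are CPM, counts scaled to a common library size, in the order WT, K27M and K27L. Actg1 (chr11:120207004-120209856, minus strand, mm9), the gene of cytoplasmic gamma-actin, read 304, 298 and 281 CPM at 24 h and 0, 1.47 and 0.724 CPM at 72 h. The groups were far apart in every line, with a log2 difference of -8.47 ± 0.30 (SE, n = 3 libraries a time, adjusted p = 1.1e-09 by edgeR). In the 11 ESC libraries, normalised separately, Actg1 had a median of 201 CPM (range 92.5 to 251).

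Ptbp1, a splicing regulator, read 528, 567 and 517 CPM at 24 h against 2.65, 2.58 and 3.26 CPM at 72 h, and 660 CPM at the ESC median. Carm1, an arginine methyltransferase that modifies histone H3, read 133, 128 and 125 CPM against 0.53, 0.369 and 0 CPM. With 4513 counts at 24 h and 2 at 72 h, its depth-scaled ratio was 559 (95% exact interval 155 to 4615, counting error only), and the ESC range was 102 to 160 CPM. The same large fall was called for Med12, a subunit of the Mediator complex, with a log2 difference of -7.24. It was also called for Ppib, a cyclophilin of the endoplasmic reticulum (-7.13), Vcl, the focal adhesion protein vinculin (-6.92), Cc2d1b (-6.78), Ap2a1, a subunit of the clathrin adaptor AP-2 (-6.61), and Gpc1, a cell surface proteoglycan (-6.58). Coro1b, an actin regulator, fell from 3334 counts to 3, a depth-scaled ratio of 275 (95% exact interval 94.1 to 1335). In each of these genes the 24 h and 72 h libraries did not overlap, which follows largely from how they were chosen and adds no support.

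On the opposite side, Rpl27a-ps2 (chr14:109091411-109091860, minus strand, mm9), an annotated copy of a ribosomal protein gene, had 0 counts in all 3 libraries at 24 h and 187, 143 and 149 CPM at 72 h. Rpl36-ps2 read 0, 0.485 and 0.938 CPM at 24 h and 392, 268 and 269 CPM at 72 h. Rpl36a-ps1, again at 0 in all 24 h libraries, read 120, 75.5 and 68.7 CPM at 72 h. The other genes with the largest rises that the annotation names were Snhg9, a host gene of small nucleolar RNAs (log2 difference 8.72), and Gm4997, Gm10260, Gm15536, Gm10240, Gm9703 and Gm7536 (8.32 to 10.47). Their ESC medians were 0.126 CPM for Rpl27a-ps2, 2.03 CPM for Rpl36-ps2 and 0.658 CPM for Gm4997. Reads of such copies can come from the parent gene, and how reads with several matches were counted is not given in the sources used here, so levels of these genes and of their parents are uncertain. Of 108 annotated pseudogenes tested, 58 (53.7%) were called higher and 39 (36.1%) lower, against 18% and 22.3% of 10960 protein-coding genes. Pseudogenes near 0 at either time could pass the filter on low counts only by the other time. That favours calls among those tested, so these shares cannot be compared directly.

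For most of these genes the ESC libraries sat on the 24 h side. Of the 493 genes called more than 8-fold lower at 72 h, the mean ESC level was nearer to the 24 h level for 414 (84%), and their median was 20.6 CPM at 24 h, 0.838 CPM at 72 h and 18.7 CPM in ESCs. Of the 315 genes called more than 8-fold higher, the ESC level was nearer to the 24 h level for 299 (94.9%), with medians of 1.37, 41.9 and 1.53 CPM.

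The size and sign of the difference went with exonic length. Genes were put in 10 bins of about equal size by that length. In the bin of the shortest genes, with a median of 1075 bp, the median log2 difference was 1.17, and 54.1% of genes were called higher and 12% lower. In the bin of the longest genes, with a median of 10206 bp, the median was -0.62, with 4.18% called higher and 34.3% lower. These bins had the same signs in each line, at 1.29, 1.15 and 1.01 and at -0.71, -0.64 and -0.52 for WT, K27M and K27L. Across 11244 genes with a length, Spearman's rho of length and difference was -0.338, a description over genes that share the same 6 libraries. With the trend on length removed in each library, 4248 genes were called, and 3522 (76.1%) of the 4626 calls among genes with a length were kept with their direction. In ESCs rho had the opposite sign, 0.404. The part of library kit, RNA quality and depth in this relation was not tested.

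**Figure D2:**
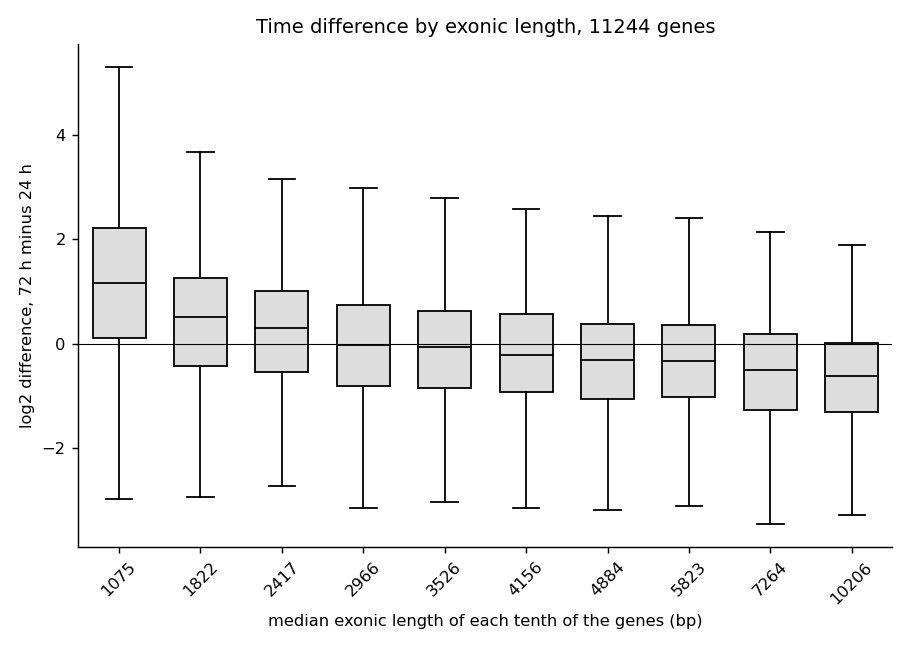
The x axis gives the median exonic length of each of 10 bins of 11244 genes and the y axis the log2 difference between 72 h and 24 h, with boxes from the first to the third quartile, medians as lines and whiskers to 1.5 times the box height. The medians go down from 1.17 in the bin of the shortest genes to -0.62 in that of the longest.

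Lists of short transcripts had medians above 0. Among 79 tested cytosolic ribosomal protein genes, 45 rose and 6 fell (57% and 7.59%, against 19.6% and 22.5% of all genes). Their median log2 difference was 1.29, against -0.06 over all genes. Rpl27, a protein of the large subunit, read 79.9, 96 and 110 CPM at 24 h and 1469, 1476 and 1273 CPM at 72 h (log2 difference 3.89 ± 0.18, adjusted p = 5.4e-09 by edgeR). Rps28 of the small subunit rose by 3.83 and Rpl23a by 3.81, whereas Rpl6 fell by 2.33 and Rps6 by 2.29 on the log2 scale. The share of all counts on these genes was 2.73% to 3.34% at 24 h and 6.53% to 7.69% at 72 h. With the length trend removed, 30 were higher and 15 lower.

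Nuclear genes of oxidative phosphorylation encode subunits of the mitochondrial respiratory chain and ATP synthase. Of 74 tested 47 were higher (63.5%, against 19.6% of all genes) and 3 lower (4.05%, against 22.5%), with a median of 1.44. Cox7c, a small subunit of cytochrome oxidase, read 59.2, 63.2 and 65.1 CPM at 24 h and 1040, 984 and 774 CPM at 72 h. Atp5k of the ATP synthase rose by 3.75 and Ndufb3 of complex I by 3.68. Uqcrc2 of complex III and Atp5g2 of the ATP synthase were called lower, at -2.58 and -2.11. The median exonic length of the list was 1328 bp, and with the length trend removed 26 members were higher and 10 lower.

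Of the mitochondrial genome's own transcripts 11 were tested. They were split, with 5 higher and 3 lower (45.5% and 27.3%, against 19.6% and 22.5% of all genes) and a median of 0.37. With the length trend removed 1 was higher and 5 lower, with a median of -0.97. mt-Co1, the core subunit of cytochrome oxidase, read 1979, 3545 and 4429 CPM at 24 h and 229, 253 and 291 CPM at 72 h, a log2 difference of -3.62. mt-Nd5 fell by 3.16, while mt-Nd4 (1.34) and the ribosomal RNA mt-Rnr2 (1.81) were higher and mt-Cytb was not called (0.37). These genes are copied as long joint transcripts from the same DNA circle. The tRNA genes mt-Tp and mt-Tq were also called higher, but with the length trend removed mt-Tp was at -0.97 and mt-Tq lost its call. mt-Tq rested on 2 counts at 24 h and 36 at 72 h (24 h over 72 h depth-scaled ratio 0.0138, 95% exact interval 0.0016 to 0.0534).

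Replication-dependent histone genes, whose mRNAs mostly end in a stem-loop in place of a poly(A) tail, were low at both times and higher at 72 h. Of 55 genes 15 were tested, and 14 of them rose (93.3%, against 19.6% of all genes), with a median log2 difference of 2.72. Genes near 0 at 24 h could pass the filter on low counts only by their 72 h libraries, which favours rises among those tested. The list took 0.0064% to 0.0102% of counts at 24 h and 0.0484% to 0.0533% at 72 h. Hist3h2a read 2.55, 6.26 and 4.29 CPM at 24 h and 85.4, 97.3 and 126 CPM at 72 h, and Hist3h2ba 1.96, 3 and 1.34 CPM against 44, 45.3 and 38.7 CPM. Hist1h4b rose by 4.80 from under 0.2 CPM. The count of higher members was 8 with the length trend removed and 6 with the libraries thinned to equal depth.

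**Figure D3:**
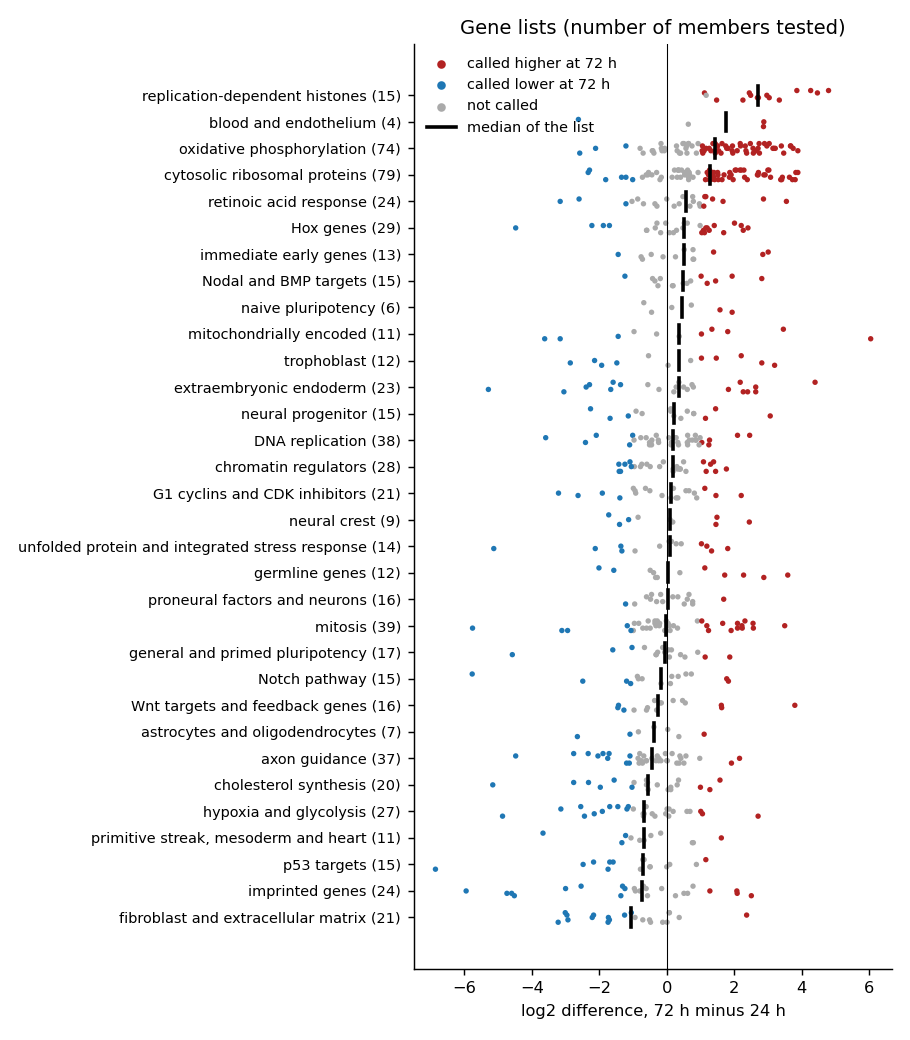
Each row is a gene list with the number of members tested, each point the log2 difference between 72 h and 24 h of a member, coloured by call, and each bar the list's median. Histone, oxidative phosphorylation and ribosomal protein genes lie to the right, with medians of 2.72, 1.44 and 1.29, and fibroblast and extracellular matrix genes to the left, with a median of -1.05.

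Genes of the RA response were called in both directions. Of 26 listed genes 24 were tested, and 7 were called higher (29.2%, against 19.6% of all genes) and 3 lower (12.5%, against 22.5%). All 3 receptors of the RAR family were lower at 72 h. Rarb (chr14:17263356-17651381, minus strand, mm9) read 15.9, 17.4 and 8.31 CPM at 24 h and 2.65, 1.11 and 1.09 CPM at 72 h. Its libraries did not overlap, with a log2 difference of -3.16 ± 0.37 (adjusted p = 1.2e-05 by edgeR), and its ESC range was 0 to 0.311 CPM. Rarg fell from 48.4, 50 and 31.8 CPM to 6.9, 10.7 and 3.98 CPM (-2.60), and Rara by 1.21 on the log2 scale.

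The enzymes that clear RA went the other way in level. Cyp26b1 (chr6:84521938-84543740, minus strand, mm9) read 94.6, 150 and 10.6 CPM at 24 h and 1025, 637 and 513 CPM at 72 h, a log2 difference of 3.55 ± 0.47 (adjusted p = 2.9e-05 by edgeR). Its level at 24 h was lowest in K27L. Cyp26a1, the enzyme that RA switches on most directly, read 337, 229 and 490 CPM at 24 h and 505, 485 and 1160 CPM at 72 h. It was higher at 72 h in each line but stayed just under 2-fold (0.97, adjusted p = 1.4e-04 by edgeR) and was not called. In ESCs its median was 0 CPM.

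The RAR gene Rarb and the RA-clearing gene Cyp26a1 are shown by sequence, since they carry the element through which RAR proteins act and yet differed in sign. The element searched was the DR5, a direct repeat of the nuclear receptor half-site with 5 bases between the half-sites, on both strands of the 300 bases around each start site in RefSeq (GRCm38.p6). Of 17 listed genes with a promoter sequence, 2 held it, as did 0.115% of 27025 genes with one, and the repeat with 2 bases between half-sites was found in 0 of the 17 and in 0.311% of all genes. The 120 bases before the start site are printed 5′ to 3′ on the gene's strand, with the repeat in capitals. In Rarb (chr14:16575477-16575596, minus strand) the repeat runs from base -53 to -37, and in Cyp26a1 (chr19:37697688-37697807, plus strand) from -32 to -16 on the opposite strand.
Rarb: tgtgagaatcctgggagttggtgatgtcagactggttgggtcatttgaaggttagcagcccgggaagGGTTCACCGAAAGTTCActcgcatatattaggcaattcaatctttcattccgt
Cyp26a1: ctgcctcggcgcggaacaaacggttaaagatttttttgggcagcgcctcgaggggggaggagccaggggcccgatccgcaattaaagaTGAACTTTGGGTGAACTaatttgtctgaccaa
A match of letters describes the sequence and does not show binding in these cells.

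Orphan receptors were higher as well. Nr2f1 (chr13:78328234-78339018, minus strand, mm9), a nuclear receptor of neural and mesodermal precursors, read 36.4, 76 and 34.6 CPM at 24 h and 374, 472 and 221 CPM at 72 h, a log2 difference of 2.87 ± 0.17 (adjusted p = 2.8e-08 by edgeR). Nr2f2 (1.13), the retinol dehydrogenase Rdh10 (1.10), the transglutaminase Tgm2 (1.36) and the meiosis gene Stra8 (1.67) were also called higher. The RA carrier Crabp2 read 108, 114 and 70.1 CPM at 24 h and 115, 165 and 68.7 CPM at 72 h (0.22), and the reductase Dhrs3 had a difference of -0.00. Both were far above their ESC medians of 3.18 and 2.34 CPM at both times. With scaling by total counts, 4 of the 24 tested members of the list were called higher, against 1753 of all 11692 genes tested.

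**Figure D4:**
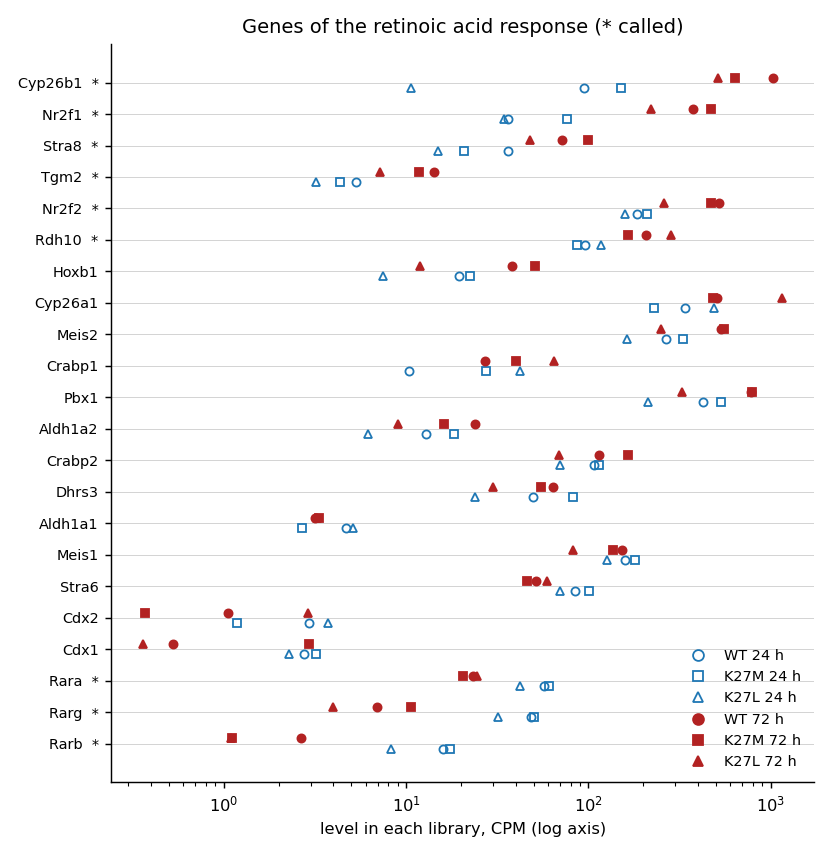
Rows are 22 of the 24 tested genes of the RA response, ordered by time difference, and each marker is the level of 1 library in CPM on a log axis, open blue for 24 h and filled red for 72 h, with an asterisk for called genes. In Cyp26b1 and Nr2f1 all filled markers lie to the right of the open ones, and in Rarb, Rarg and Rara to the left.

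Hox genes, which give cells their position along the body axis, followed no single direction. Of 29 tested, 12 rose (41.4%, against 19.6% of all genes) and 4 fell (13.8%, against 22.5%). Hoxc9 rose from 24.5, 28.6 and 19.6 CPM to 197, 134 and 79.6 CPM (2.41), Hoxb5 by 2.27, Hoxc4 by 2.21 and Hoxa5 by 2.01 on the log2 scale. Hoxa3 (chr6:52118509-52163335, minus strand, mm9) had 20.2, 32.2 and 11 CPM at 24 h and 1.06, 1.84 and 0 CPM at 72 h, a log2 difference of -4.48 ± 0.40 (adjusted p = 1.1e-06 by edgeR). Its neighbour Hoxa4 fell by 2.22 and Hoxb2 by 1.70. Transcripts of neighbouring Hox genes overlap, and reads in shared stretches cannot be assigned to a single gene. The number of higher members was 7 with scaling by total counts, where 1753 of all 11692 genes tested were higher.

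Pou5f1, Nanog and Esrrb were at a few CPM or less at both times, and other pluripotency genes were not. Pou5f1, the central factor known as Oct4, read 2.74, 2.38 and 5.36 CPM at 24 h and 0, 0 and 0.362 CPM at 72 h, against an ESC range of 471 to 853 CPM. With 108 counts at 24 h and 1 at 72 h its depth-scaled ratio was 26.7 (95% exact interval 4.7 to 1066), and it was called lower (adjusted p = 4.1e-04 by edgeR). Nanog, between 1.18 and 3.35 CPM, and Esrrb, between 1.09 and 3.39 CPM, did not pass the filter on low counts, while their ESC medians were 1303 and 685 CPM. Sox2, shared by pluripotent and neural cells, read 9.99, 32.3 and 22.9 CPM and then 13.3, 31 and 26.4 CPM, a difference within the spread of the lines (0.14).

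Klf4, a factor of the naive state, read 84.6, 49.3 and 207 CPM at 24 h and 75.3, 65.6 and 233 CPM at 72 h and was not called (0.15), and Lin28a, an RNA-binding protein of early cells, averaged 302 CPM at 24 h and 242 CPM at 72 h (-0.32). Of 6 tested naive genes Gbx2 (1.58) and the threonine dehydrogenase gene Tdh (1.94) were called higher and 0 lower. These are 33.3% and 0%, against 19.6% and 22.5% of all genes. Of 17 tested genes of general or primed pluripotency, Lefty2 (1.87) and Utf1 (1.14) were called higher. Mybl2 (-1.60), Trim71 (-1.03) and Pou5f1 were lower, and Fgf5 was at 0.05. At 11.8% higher and 17.6% lower, both shares of this list were below those of all genes. Gbx2 lost its call without the K27M library at 72 h (1.44), and Utf1 with the length trend removed (0.29), with total counts (0.89) and without the K27L library at 24 h (0.97). Zfp42 and Klf2 lie on chromosome 8.

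The labels call the cells ES-derived neural progenitors, and the markers gave a mixed picture. Summed over 8 neural progenitor markers, levels were 785 to 2084 CPM at 24 h and 372 to 1108 CPM at 72 h, against 341 to 646 CPM in ESCs. Vim, which many cell types express, made up most of each sum, with means of 1028 CPM at 24 h and 641 CPM at 72 h and an ESC median of 434 CPM. For 5 markers of extraembryonic endoderm the sums were 864 to 6171 CPM and 533 to 1813 CPM, against 44.1 to 155 CPM in ESCs, and Lama1 alone gave 643 to 5171 CPM of the sums at 24 h. Over 3 neuron markers the sums were 6.43 to 16.8 CPM at 24 h and 7.6 to 21.4 CPM at 72 h, below the 196 to 476 CPM in ESCs, where Stmn2 alone had a median of 296 CPM. Olig2, which defines ventral progenitors, reached no more than 2.17 CPM in any library. Lower RNA per cell and fewer cells of a type cannot be told apart in these bulk samples.

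Of 15 tested neural progenitor genes 3 rose and 3 fell (20% each), near the 19.6% and 22.5% of all genes, so the count sets the list apart in neither direction. Sox3, a factor of the early neural plate, read 1.96, 3.35 and 4.42 CPM at 24 h and 21.7, 35.7 and 23.5 CPM at 72 h (3.07), and Sox11 rose by 1.45. Nes, which encodes the intermediate filament nestin, fell from 267, 396 and 135 CPM to 76.9, 70.8 and 23.2 CPM (-2.26), and N-cadherin (Cdh2) by 1.68. Pax6 read 11.6, 29.1 and 15.4 CPM and then 26.5, 45.7 and 24.6 CPM (0.80, not called), and Vim was at -0.73. Of 16 tested proneural and neuronal genes 1 was higher and 1 lower (6.25% each, against 19.6% and 22.5% of all genes). Crmp1, a gene of axon growth signalling, fell (-1.22), with Dcx at -0.30 and Stmn2 at 0.77, both not called. Of 37 tested axon guidance genes 2 were called higher (5.41%, against 19.6% of all genes) and 10 lower (27%, against 22.5%), with a median of -0.44. Robo1, the Slit receptor, read 245, 271 and 170 CPM against 34.5, 41.6 and 25 CPM (-2.76), and Plxna1 fell by 2.33 and Epha1 by 4.48. The median exonic length of that list was 6932 bp, and with the length trend removed its median was -0.06, with 5 members higher and 7 lower.

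Of 23 tested genes of extraembryonic endoderm 7 were called higher and 7 lower (30.4% each, against 19.6% and 22.5% of all genes). Lama1 (chr17:68046605-68171985, plus strand, mm9), a laminin chain of Reichert's membrane, read 2627, 643 and 5171 CPM at 24 h and 238, 129 and 510 CPM at 72 h, a log2 difference of -3.05 ± 0.23 (adjusted p = 2.2e-07 by edgeR). Its partner Lamc1 fell by 2.39, while Lamb1, the remaining chain of the same trimer, read 2093, 739 and 4191 CPM against 1329, 902 and 3387 CPM and was not called (-0.23). The transcription factor Foxa2 rose from 46, 18 and 92.6 CPM to 150, 122 and 456 CPM (2.27), and Cited1 (2.64), Rbp4 (2.64), Pth1r (2.18) and Spink3 (4.40) rose too.

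Gata4 fell from 190, 83.9 and 541 CPM to 52, 31 and 170 CPM (-1.66), with overlap between the times and with adjusted p = 0.0904 where the line was left out of the model. Gata6 (0.79) and Sox17 (0.61), which act beside it, were not called. In Lama1, Foxa2, Gata4 and Cited1 the K27L library was the highest at both times. Apob, a lipoprotein gene of visceral endoderm, had 164 counts at 24 h and 1 at 72 h, a depth-scaled ratio of 40.6 (95% exact interval 7.19 to 1614).

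Of 21 tested fibroblast and matrix genes 11 fell (52.4%, against 22.5% of all genes) and 1 rose (4.76%, against 19.6%). The median of -1.05 was unchanged with the length trend removed. Col3a1 read 179, 275 and 130 CPM at 24 h and 88, 68.2 and 27.5 CPM at 72 h (-1.74), Timp3, an inhibitor of matrix proteases, fell by 3.22 and Col6a1 and Col6a2 by 2.96 and 3.01. Col1a1 was called (-1.25), but was under 2-fold without the K27L library of either time (-0.79 and -0.75) and with the length trend removed (-0.83). Tagln, a smooth muscle gene, was the 1 member that rose (2.37), while Acta2 read 289, 408 and 146 CPM and then 478, 282 and 40.2 CPM, without a common direction in the lines, and Dcn was at 0.01. Summed levels of 6 fibroblast markers were 249 to 399 CPM at 24 h and 55.7 to 174 CPM at 72 h, against 3.41 to 12.3 CPM in ESCs. The labels name gelatin-coated plates for these cultures, irradiated embryonic fibroblasts are named in the methods for the mass cytometry cultures, and the part of such cells here was not tested.

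The other lineage lists were short. In the trophoblast list 5 of 12 were higher and 4 lower (41.7% and 33.3%, against 19.6% and 22.5% of all genes). Among the higher were the X-linked homeobox genes Rhox6 (3.20) and Rhox9 (2.82) and Gata3 (1.03), and among the lower Esx1 (-2.86). With the length trend removed 4 were higher and 5 lower. In the neural crest list 3 of 9 tested were higher and 3 lower (33.3% each, against the same shares of all genes). Snai1 (2.45) and Sox9 (1.49) were called higher and Dlx5 lower (-1.40), and Snai2 was at 0.10. In the list of primitive streak, mesoderm and heart genes 1 of 11 was higher and 3 lower (9.09% and 27.3%). Hand1 fell by 3.67, Wnt3 by 1.33 and Gata5 by 1.22, Tbx18 rose by 1.62 and T stayed at or under 0.369 CPM. Gata5 lost its call without any 1 of the 6 libraries (-1.50 to -0.86). Dlx5 lost its call without the K27L (-0.92) or the K27M library (-1.65) at 72 h. With DESeq2 neither Gata5 (-1.21) nor Dlx5 (-1.43) was called. Gata3 lost its call without the WT library of either time (0.92 and 0.99) or the K27M library at 24 h (0.99). It was also under 2-fold with total counts (0.77), upper-quartile factors (0.93), no filter on low counts (0.91) and at least 10 counts in every library (0.93). Of 4 tested blood and endothelium genes 2 were higher and 1 lower (50% and 25%). Embryonic globin Hbb-y rose by 2.88 and the endothelial gene Egfl7 by 2.87, and the angiopoietin receptor gene Tek fell by 2.62. In the glial list 1 of 7 tested was higher and 2 lower (14.3% and 28.6%, against 19.6% and 22.5% of all genes). Slc1a3 rose by 1.11, and Aldh1l1 (-2.65) and Cnp (-1.09) fell. Slc1a3 lost its call without the WT library at 24 h (0.78) or 72 h (0.85), Aldh1l1 without the K27L library at 72 h (-1.57), and Cnp without the K27L or the WT library at 72 h (-0.99 without the latter) and with the length trend removed (-0.96).

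Genes of cell division were called in both directions. Of 39 tested mitosis genes 13 rose (33.3%, against 19.6% of all genes) and 5 fell (12.8%, against 22.5%), with a median of -0.01. Cdk1, the mitotic kinase, read 160, 147 and 174 CPM at 24 h and 643, 810 and 807 CPM at 72 h (2.23), and its cyclin Ccnb1 rose by 1.19 (0.93 and not called with total counts). Birc5, the survivin subunit of the chromosomal passenger complex, rose from 64.3, 72.2 and 85.5 CPM to 851, 700 and 966 CPM (3.50), while Aurkb, the kinase of that complex, was at -0.49 and not called. Kif20a, the kinesin that brings the complex to the midzone, fell from 197, 160 and 137 CPM to 1.06, 4.42 and 2.89 CPM (-5.76, adjusted p = 6.0e-09 by edgeR), and Prc1 by 3.11. Mki67, the common marker of dividing cells, fell from 496, 450 and 646 CPM to 71.1, 52 and 87.2 CPM (-2.94), whereas Top2a read 639, 480 and 595 CPM and then 565, 612 and 641 CPM (0.10). The ESC medians of Kif20a and Mki67 were 230 and 422 CPM.

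Of 38 tested DNA replication genes 5 were higher and 5 lower (13.2% each), smaller shares than the 19.6% and 22.5% of all genes. Rpa2, a subunit of the single-strand binding protein, rose by 2.46, and Chaf1a, the large subunit of the chaperone that places replicative H3, fell from 112, 116 and 117 CPM to 7.43, 11.8 and 9.04 CPM (-3.59). Rfc4 fell by 2.41, and Pcna (-0.77) and Mcm2 (0.33) were not called. Among 21 tested G1 genes 3 were higher and 4 lower (14.3% and 19%, against 19.6% and 22.5% of all genes). Cdkn2a (2.21) and Ccnd2 (1.46) were higher and Ccnd3 (-3.21), Cdk4 (-2.63) and Ccnd1 (-1.39) lower, with the inhibitors Cdkn1a at -0.50 and Cdkn1c at 0.12. Of 15 tested genes of the p53 pathway 6 were lower (40%, against 22.5% of all genes) and 1 higher (6.67%, against 19.6%). With the length trend removed 8 were lower and 0 higher. Trp53 itself fell by 2.48, Trp53inp1 by 2.17, and Pltp had 1051 counts at 24 h and 2 at 72 h (depth-scaled ratio 130, 95% exact interval 35.9 to 1076).

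Of 27 tested hypoxia and glycolysis genes 10 fell (37%, against 22.5% of all genes) and 3 rose (11.1%, against 19.6%), and with the length trend removed 8 were lower and 1 higher. Pgam1, phosphoglycerate mutase, read 85, 76.7 and 102 CPM at 24 h and 3.18, 2.95 and 2.89 CPM at 72 h (-4.87), Eno1 fell by 3.14, Gapdh by 2.44 and Pgk1 by 2.15. Ldha, the lactate dehydrogenase of the same pathway, read 468, 377 and 815 CPM and then 437, 460 and 823 CPM (0.07). The glucose transporter Slc2a1 (-0.99) and the growth factor Vegfa (-0.43) were not called, and Adm rose by 2.71. Several glycolytic enzymes have processed copies in the genome, so their levels share the uncertainty of the ribosomal genes. In cholesterol synthesis 6 of 20 were lower and 3 higher (30% and 15%, against 22.5% and 19.6% of all genes). Idi1, the isomerase of isoprenoid units, fell by 2.76 and Dhcr7, a late reductase of the pathway, by 2.32.

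Imprinted genes are read from a single parental copy. Of 24 tested 9 fell (37.5%, against 22.5% of all genes) and 4 rose (16.7%, against 19.6%). With the length trend removed 7 were lower and 5 higher. Peg10 read 8905, 8238 and 2820 CPM at 24 h and 439, 376 and 103 CPM at 72 h (-4.52), and Mest 1310, 1023 and 61.9 CPM against 39.2, 41.6 and 3.62 CPM (-4.74). Igf2 had 905 counts at 24 h and 3 at 72 h (depth-scaled ratio 74.7, 95% exact interval 25.5 to 363), while H19, its neighbour, read 1214, 749 and 33.6 CPM and then 1780, 1218 and 38.7 CPM (0.51, not called). Meg3, a long noncoding RNA, rose from 435, 631 and 454 CPM to 4144, 3009 and 1854 CPM (2.51), and Snrpn fell by 4.60. Peg3 was at -0.93.

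Signalling genes were named by pathway. Of 15 tested Notch genes 2 were higher and 4 lower (13.3% and 26.7%, against 19.6% and 22.5% of all genes). The receptor Notch1 fell from 43.9, 47.3 and 24.8 CPM to 1.06, 0.737 and 0.362 CPM (-5.77, adjusted p = 2.5e-08 by edgeR), Jag2 by 2.49 and Notch3 by 1.19, and the effectors Hes1 (1.83) and Hes6 (1.78) rose. Notch3 lost its call with the length trend removed (-0.69) and without the WT library at 72 h (-0.98), and the ligand Dll1 was at -0.17. Of 15 tested Nodal and BMP targets 5 were higher and 1 lower (33.3% and 6.67%, against 19.6% and 22.5% of all genes). With the length trend removed 2 were higher and 0 lower. The BMP target Id3 rose from 145, 245 and 191 CPM to 1194, 1953 and 1015 CPM (2.82), with Id2 at 1.45 and Id1 at 1.20 and Smad7 at -1.24. With the length trend removed Id3 was at 2.38 and still called, while Id2 (0.64), Id1 (0.27) and Smad7 (-0.98) were not called, and Id1 also lost its call without the WT or the K27M library at 24 h (0.97 each). Of 16 tested Wnt genes 3 were higher and 3 lower (18.8% each), near the shares of all genes, and the inhibitor Sfrp5 (3.80) and the factors Tcf7l1 (1.63) and Tcf7l2 (1.62) rose, Lef1 fell by 1.43 and Axin2 was at -0.97. With the length trend removed Lef1 was at -0.90 and not called.

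Of 28 tested chromatin regulators 6 were higher and 6 lower (21.4% each), near the 19.6% and 22.5% of all genes. With the length trend removed 6 were higher and 0 lower. H3f3b and H3f3a both encode H3.3 and differed. H3f3b read 650, 827 and 759 CPM at 24 h and 1894, 2018 and 1928 CPM at 72 h (1.39), and H3f3a 97.2, 106 and 88.1 CPM against 53.6, 71.1 and 49.9 CPM (-0.74, not called). The H3.3 chaperone gene Daxx rose by 1.45 and Ubn1 of the HIRA complex by 1.77, while Cabin1 of the same complex fell by 1.42. Dnmt3l rose by 1.30, Tet1 fell by 1.24 and Ezh2, the enzyme of PRC2, was at 0.30. Tet1 and Cabin1 were not called with the length trend removed, nor was Tet1 without the WT library at 24 h (-0.91) or 72 h (-0.84). How much of the H3f3b counts came from the added H3.3 copy was not tested.

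In the unfolded protein and integrated stress response 4 of 14 tested rose and 4 fell (28.6% each, against 19.6% and 22.5% of all genes). Among them Atf4, a factor that cells translate under stress, rose from 155, 205 and 191 CPM to 734, 570 and 633 CPM (1.81) and the chaperone Pdia4 fell by 2.12. The cystine transporter gene Slc7a11 had 199 counts at 24 h and 1 at 72 h (depth-scaled ratio 49.3, 95% exact interval 8.74 to 1956). Of 13 tested immediate early genes 3 were higher and 1 lower (23.1% and 7.69%, against 19.6% and 22.5% of all genes). The YAP targets Ctgf (2.85) and Cyr61 (1.39) and Ier3 (3.01) rose, with Egr1 at 0.78 and Fos at -0.11. In the germline list 5 of 12 were higher and 2 lower (41.7% and 16.7%, against 19.6% and 22.5% of all genes). Tex19.1 (3.59) and Dazl (2.28) rose and Mov10l1 fell by 2.01.

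Differences of the mutant lines from WT at 24 h were set beside those at 72 h. Over 7534 genes that averaged 20 CPM or more, Pearson's r between the K27L minus WT difference at 24 h and at 72 h was 0.519, and 209 of 236 genes with more than a 2-fold difference at 24 h had the same sign at 72 h (88.6%). For K27M minus WT, r was 0.0451, with 80 of 119 genes (67.2%). These values describe genes within the same 4 libraries of each line pair, and with 1 library a line and time they carry no test. H19 was low in K27L at both times, at 33.6 and 38.7 CPM. Grb10, an imprinted adaptor gene, read 15.1, 19.3 and 484 CPM at 24 h and 3.71, 3.69 and 267 CPM at 72 h.

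**Figure D5:**
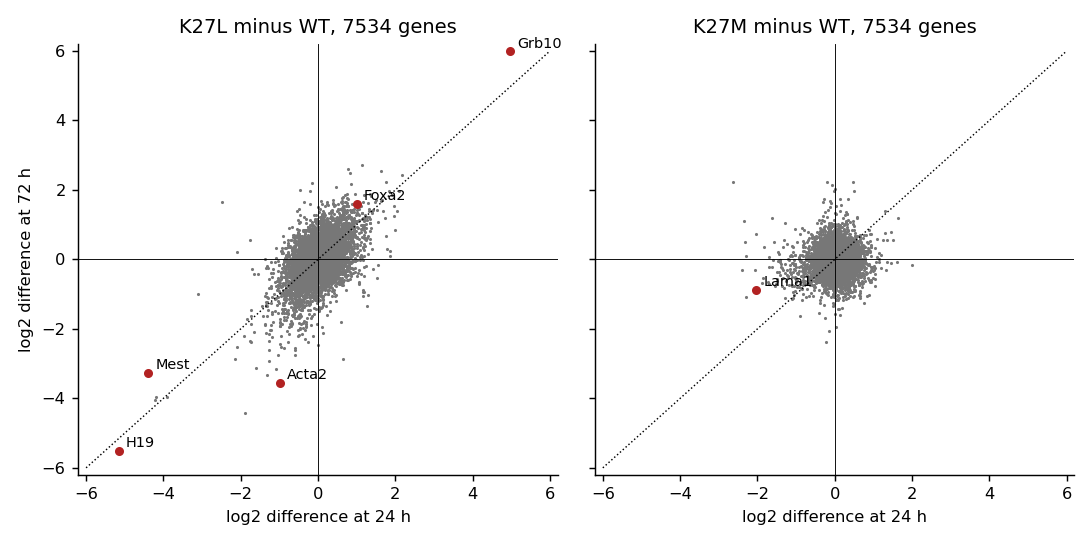
Each point is a gene of at least 20 CPM, with the log2 difference from WT at 24 h on the x axis and at 72 h on the y axis, for K27L (left) and K27M (right), and the dotted line marks equal differences. H19, Mest and Grb10 lie far from 0 near the dotted line in K27L, where r was 0.519, and the K27M points gather around 0, where r was 0.0451.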

How the data were processed

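RNA-seq of RA-treated cells was analysed, with ESC libraries of the same lines beside it. The authors aligned reads to mm9 with STAR 2.7.1 (submitters' processing notes) and deposited raw counts per gene. Their TPM scaling was not used here, and counting settings and the library kit of each sample are not given in the sources used here. Of 55471 gene identifiers 32589 were matched to an NCBIM37 (mm9) annotation, and genes of chromosome 8 were left out. Counts were tested with the quasi-likelihood test of edgeR 4.0.16 (TMM, filterByExpr, line plus time), with p-values adjusted by Benjamini-Hochberg over all genes tested. An ESC library of very low depth was left out. CPM are scaled by TMM factors, and levels of the RA and ESC tables were normalised separately. DESeq2 1.42.0 was an alternative. R 4.3.3, limma 3.58.1, Python 3.11.15, pandas 2.3.3, NumPy 2.4.6, SciPy 1.17.1 and Matplotlib 3.10.9 were used. The fit was tested on simulated data.

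Libraries of a line pair the times, since both come from the same cell line, and the deviations of same-line libraries from the time means correlated at 0.143 (WT), 0.442 (K27M) and 0.637 (K27L) over 11692 genes. Pairs of different lines ranged from -0.594 to 0.344, and the highest, K27M at 24 h with WT at 72 h, was above the WT pair. No libraries were copies (chi-square of at least 5.94 per gene). The members, gene lists and tests were chosen with earlier results of these data known. Genes named are those marked in each list, up to 3 further called members per list with the largest change and no overlap between times, and the 10 genes with the largest change in each direction at 50 CPM or more and over 2-fold in each line. Listed members beyond this rule, such as Tdh, Grb10, Lamb1 and Top2a, were named after their values were seen. Totals of 2239137 to 22269533 counts set the precision, and exact intervals cover counting error only. Values of some listed genes are not reported here, although they are in the counts over lists.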

Additional observations from a re-analysis of the deposited data

Results flagged for a closer look

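The effect of time differed between RA-treated cells and ESCs. The difference between the 2 effects was called for 5962 of 14227 genes by edgeR's quasi-likelihood test (Benjamini-Hochberg). The log2 change from 24 h to 72 h was greater in RA-treated cells than in ESCs for 2166 of them and smaller for 3796. With RLE factors these were 2473 and 3316. In ESCs 27 genes were called at all. The ESC and RA libraries were normalised as 1 set for this test, and kit, depth and time cannot be told apart in the RA libraries.

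Levels in ESCs were checked for single libraries that stood apart, for 15 genes at 24 h and at 72 h. Of 30 groups 1 held such a library, and chance gives about 1 in 20. It was Pou5f1 in the K27M ESC library at 72 h, replicate 1, at 471 CPM, the lowest of its group.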

How the results depend on the processing

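Time, kit, depth and growth label go together in the 6 RA libraries, and each line has 1 library a time. No alternative separates time, kit and growth label. Thinning made the total counts alike, and 4432 of the 10672 genes then tested were called. Without the replicate block for the line, 4775 genes were called (4924 with it), and Gata4 lost its call (adjusted p = 0.0904 by edgeR). A fold of 4 left 1832 genes (809 higher, 1023 lower), and the adjusted p alone gave 8170 (3922 higher, 4248 lower). DESeq2 called 4804, upper-quartile factors 4984, total counts 5169, thinned libraries 4432, no filter on low counts 5968 and at least 10 counts in every library 3468. Leaving out 1 RA library gave 4848 to 5302 calls (2238 to 2579 higher, 2541 to 2764 lower). The higher share of calls was 46.6%, 41.3% with upper-quartile factors and 33.9% with total counts.

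In ESCs the 27 calls (23 higher, 4 lower) became 43 (35 and 8) with the replicate block, 44 (34 and 10) with the low library kept and 199 (136 and 63) with no filter on low counts. Leaving out 1 ESC library gave 1 to 85 calls (1 to 68 higher, 0 to 17 lower). The RA minus ESC difference had 5962 calls, and 5646 to 6080 without 1 library.

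Of 135 named genes called, 20 lost the call under an alternative, most often with the length trend removed, with total counts or without 1 library, and mt-Tp turned (-0.97 with the length trend removed). The other reversals among the genes reported were of genes not called. They were, with DESeq2, Dcn -0.07, Fgf5 -0.04, Fos 0.19 and Dhrs3 0.05. With RLE factors, Dhrs3 was 0.03. With at least 10 counts, Ldha was -0.03 and Snai2 -0.00. With the length trend removed, Cdkn1c was -0.26, Dll1 0.06, Dcn -0.37, Fgf5 -0.10, Sox2 -0.03, Snai2 -0.23, Dcx 0.39 and Crabp2 -0.55. With no filter, Dcn was -0.10, Fgf5 -0.06, Ldha -0.05 and Snai2 -0.02. With thinned libraries, Dcn was -0.02, Snai2 -0.18 and Dhrs3 0.11. With total counts, Cdkn1c was -0.14, Dcn -0.24, Fgf5 -0.20, Sox2 -0.12, Ldha -0.19, Klf4 -0.11, Snai2 -0.16 and Crabp2 -0.05, and the median of the genes from 2417 to 3834 bp -0.24. With upper-quartile factors, Dcn was -0.08, Fgf5 -0.04, Ldha -0.03, Snai2 -0.00 and that median -0.08. Leaving out 1 library gave ranges of -0.12 to 0.30 for Cdkn1c, -0.41 to 0.03 for Dll1, -1.11 to 0.13 for Acta2, -0.27 to 0.44 for Dcn, -0.46 to 0.37 for Fgf5, -0.06 to 0.20 for Ldha, -0.70 to 0.63 for Fos, -0.01 to 0.33 for Klf4, -0.10 to 0.49 for Snai2 and -0.22 to 0.36 for Dhrs3. The cause of these changes was not tested.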
